A study of Mus musculus with 8 samples.

Results

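The mesoderm state of cardiac differentiation was examined at day 4 (MES) against the stages that flank it, day 6 (cardiac progenitors, CP) and day 0 (undifferentiated embryonic stem cells, ESC). The 6 libraries of these stages, 2 biological replicates each, were taken from a series of 8, and 19166 of its 55487 annotated genes had enough reads to be tested. All libraries came from the male mouse ESC line J1 of strain 129S4/SvJae, a single line. ESC were kept with leukemia inhibitory factor and were untreated, whereas MES and CP (and the day 10 cardiomyocytes, CM, used here only for later levels) came from embryoid bodies that had been plated in medium with 1 mM ascorbic acid, so that stage and medium cannot be told apart against ESC. A gene was called higher or lower in MES where its log2 expression differed from the mean of ESC and CP, each weighted 0.5, by more than 1 at a Benjamini-Hochberg adjusted p under 0.05 in the edgeR quasi-likelihood test. It was called a transient peak or a transient dip where it also passed against ESC and against CP, each by the same rule and in the same direction.

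Mesoderm arises in the mouse embryo from epiblast cells that pass through the primitive streak. Nodal, Wnt, BMP and FGF signals switch on T-box and homeobox factors there, the cells lose their epithelial form and migrate away, and most of these genes are silenced again once the cells take on a heart, blood, vessel or somite fate. A stage that holds such cells can therefore show genes that neither the pluripotent cells before it nor the progenitors after it express at the same level. A stage in the middle can also hold less of transcripts that both neighbours carry.

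Library totals of the 6 libraries lay between 18046063 and 19220169 counted reads. The mesoderm label was borne out by its markers, since the summed level of T, Mixl1, Mesp1, Eomes, Kdr and Pdgfra was 508 and 505 TPM (transcript abundance scaled for gene length and library total) in MES, 202 and 199 TPM in CP and 8.49 and 7.91 TPM in ESC. Kdr (95.4 and 89.8 TPM in MES, 91.9 and 102 TPM in CP) did not tell MES from CP. Nor did Pdgfra (77.2 and 94.5 TPM in MES, 88.5 and 88.4 TPM in CP). These genes made up most of the CP sum, and the other markers fell steeply. Of the ESC markers, Pou5f1 and Nanog kept part of their ESC level in MES, while Esrrb and Zfp42 kept little. Pou5f1 had 62.4 and 83.1 TPM in MES, against 9.72 and 5.29 TPM in CP and 829 and 862 TPM in ESC. Nanog had 31.5 and 37.2 TPM in MES, against 267 and 269 TPM in ESC. Esrrb had 0.866 and 1.38 TPM in MES, against 246 and 245 TPM in ESC, and Zfp42 7.8 and 6.65 TPM, against 631 and 610 TPM. Markers of other cell types were present as well: the summed level of 3 embryonic blood genes (Gata1, Hbb-bh1 and Hba-x) was 183 and 342 TPM in MES, 3990 and 3950 TPM in CP and 0.487 and 1.07 TPM in ESC, and that of 4 endoderm genes (Sox17, Foxa2, Afp and Ttr) was 48.7 and 85.8 TPM in MES, 304 and 502 TPM in CP and 1.95 and 1.68 TPM in ESC. The 4 cardiac genes (Nkx2-5, Tnnt2, Myl7 and Actn2) together gave 35.9 and 48.5 TPM in MES, 429 and 682 TPM in CP and 13.6 and 13.1 TPM in ESC. Of the neural and trophoblast genes, Sox1 and Pax6 summed to 0.0613 and 0.2 TPM in MES, and Elf5 stood at 0.0357 and 0.0709 TPM there while Gata3 stood at 28.9 and 23.9 TPM. In such bulk samples, fewer cells of a type and less RNA per cell cannot be told apart, and the part of cell composition in the results was not tested.

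MES stood above the mean of its neighbours for 1815 genes (9.47% of the genes tested) and below it for 1660 (8.66%). Most of these genes were not transient. MES was higher than ESC for 20.6% of the genes tested and lower for 17.0%, and against CP the shares were 5.52% and 11.7%. Of the 1815, 1193 (65.7%) were higher in MES than in ESC without a call against CP, and 191 were higher still in CP. Of the 1660, 877 (52.8%) were lower in MES than in ESC without a call against CP, and 248 were lower than CP only. The transient sets held 335 peaks (1.75% of the genes tested) and 477 dips (2.49%). Because the flanking mean was taken on the log2 scale, genes that had stepped up from a very low ESC level to a lasting plateau counted as higher. With an arithmetic mean of the ESC and CP levels in its place (and the adjusted p of the log2 comparison kept, since the arithmetic mean was not tested itself), 869 genes were more than 2-fold above the mean and 2001 were as far below it. The peaks and dips, which are defined against each neighbour, numbered 335 and 477 in both cases.

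**Figure D1:**
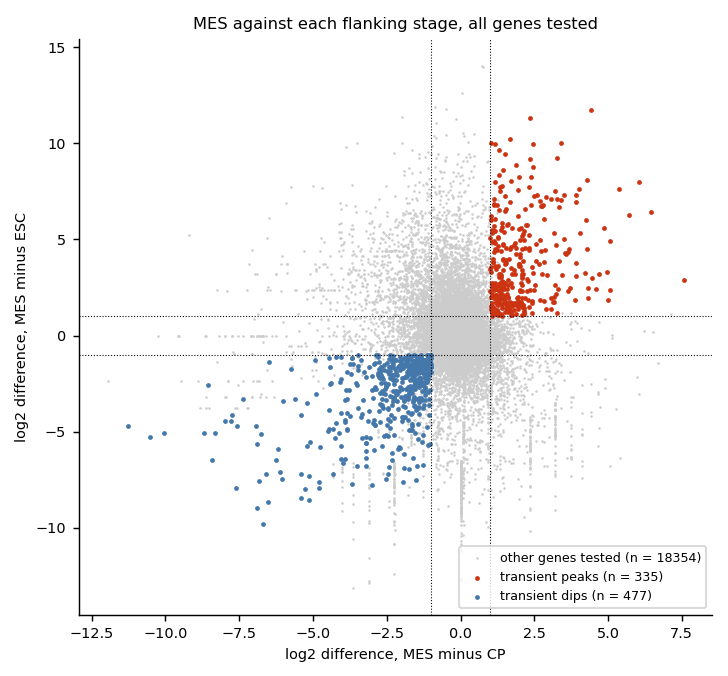
Each point is 1 of the 19166 genes tested, placed by its log2 difference of MES minus CP (horizontal axis) and of MES minus ESC (vertical axis). Dotted lines mark a log2 difference of 1 either way. The 335 transient peaks (red) fill the upper right corner and the 477 transient dips (blue) the lower left.

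Peaks were as a rule steep on the ESC side and shallower on the CP side, with a median log2 difference of 3.17 from ESC and 1.73 from CP. Dips were closer to symmetric, at medians of -2.45 from ESC and -1.96 from CP. Because a turn had to pass against both neighbours in these same libraries, separation of single libraries was largely fixed by the calls. Both MES libraries lay above all 4 flanking libraries for 334 of the 335 peaks and below them for 477 of the 477 dips, where 12.5% and 11.4% of all genes tested did so. The exception was H3c13, a replication-dependent histone gene whose reads are hard to tell from those of its near-identical copies, with 333 and 22.6 TPM in MES, 7.39 and 9.31 TPM in CP and 38.3 and 20.6 TPM in ESC, and its call was lost without MES replicate 1 and without either ESC replicate. The transient genes were less abundant than most, at a median average log2 CPM (counts scaled by library total) of 1.6 for peaks and 1.41 for dips, against 3.62 for all genes tested. A fit without 1 library was made for each of the 6 libraries in turn, and 190 peaks and 236 dips kept their call in every one of them.

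The transcription factors of the primitive streak and nascent mesoderm formed the group with the largest share of peaks among the 33 gene lists examined. Of its 23 tested members, 13 were transient peaks, 8 were higher than the flanking mean without being peaks, and 1 (Tcf15) was lower. Their median log2 difference from the flanking mean was 4.08, beside 0.045 over all genes tested.

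Mixl1, a homeobox factor of the streak (chr1:180693043-180697034), had 116 and 110 TPM in MES, against 3.05 and 1.7 TPM in CP and 1.25 and 1.22 TPM in ESC. T, the T-box factor Brachyury that marks the streak and is needed for posterior mesoderm (chr17:8434423-8442496), had 116 and 102 TPM in MES, against 12.3 and 3.64 TPM in CP and 0.777 and 0.402 TPM in ESC. Eomes, a second T-box factor, which acts in cardiac mesoderm and definitive endoderm, had 69.5 and 90.6 TPM in MES, against 5.77 and 3.33 TPM in CP and 3.16 and 2.86 TPM in ESC. For all 3 genes no flanking library came near a MES library, and CP replicate 1 was above CP replicate 2. The log2 difference from the flanking mean was 6.0 ± 0.14 (SE) for Mixl1 (adjusted p = 3.05e-11), 5.6 ± 0.29 for T (adjusted p = 1.42e-08) and 4.4 ± 0.15 for Eomes (adjusted p = 3.3e-10).

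Mesp1, a bHLH factor of the earliest cardiac mesoderm, was less abundant and showed the sharpest return, with 34 and 18.5 TPM in MES, against 0.666 and 0.17 TPM in CP and 0.141 and 0 TPM in ESC. Its 320 reads in MES compared with 5 in CP (log2 difference 6.05 ± 0.54, adjusted p = 1.95e-06) and with a single read in ESC, a ratio of 316 with a 95% counting interval of 56.3 to 12500. Msgn1, a bHLH factor of presomitic mesoderm, had 60 reads in MES, 2 in CP and 1 in ESC, a ratio to CP of 32.5 with a counting interval of 8.6 to 274. Such intervals cover counting error only. Gsc, a homeobox factor of the anterior streak and organizer, reached 9.09 and 12.7 TPM in MES, against 0.502 and 0.171 TPM in CP and 0.142 and 0.44 TPM in ESC.

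Lhx1, a LIM homeobox factor of anterior and lateral mesoderm, had 38.7 and 79.9 TPM in MES, against 5.21 and 1.49 TPM in CP and 0.265 and 0.0913 TPM in ESC. The MES replicates differed from each other but each was above all flanking libraries (log2 difference from the flanking mean 6.19 ± 0.39, adjusted p = 7.12e-08). Evx1, a homeobox gene of the posterior streak, stood at 50.2 and 41.9 TPM in MES, 10.3 and 8.19 TPM in CP and 0 and 0.0646 TPM in ESC. Sp5 and Sp8 are zinc finger factors downstream of Wnt signals, and Sp5 stood at 45.1 and 45.5 TPM in MES, against 7.18 and 7 TPM in CP and 0.685 and 0.443 TPM in ESC. Cdx2, a caudal-type homeobox factor, Snai1, which represses E-cadherin, Foxc2 and Sp8 were the remaining peaks, with log2 differences from the flanking mean of 4.08, 2.39, 3.98 and 2.0. The call of Snai1 as a peak was lost without CP replicate 2, and that of Foxc2 without MES replicate 2.

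The streak members that were higher without being peaks fell into 2 kinds. Hand1, Gata4, Foxf1, Foxc1, Foxa2 and Tbx6 kept in CP most of the level they had in MES. Hand1, a bHLH factor of lateral and extraembryonic mesoderm, had 613 and 544 TPM in MES, against 521 and 410 TPM in CP and 0.45 and 1.77 TPM in ESC, and Foxf1, a forkhead factor of lateral plate mesoderm, had 186 and 147 TPM in MES and 109 and 112 TPM in CP, with no read in ESC (at least 1270-fold higher in MES, for a floor of 3 reads over the ESC libraries). Mesp2 and Cdx1 were low at day 4 and lower at day 6, but were not called against ESC: Mesp2 had 2.16 and 3.32 TPM in MES, against 0.328 and 0 TPM in CP and 1.85 and 1.72 TPM in ESC. Tcf15, a bHLH factor of somites and primed epiblast, was the member below the mean, with 2.78 and 2.98 TPM in MES, 1.3 and 1.1 TPM in CP and 91.1 and 95.1 TPM in ESC.

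The windows around the start sites of 4 of these factors are shown because they hold T-box or TCF/LEF words and belong to genes with a steep turn. Sp8, whose window also matched CTTTGAA, is not shown. Each window runs from 250 bases before to 50 bases after the start (RefSeq, GRCm38.p6), 5′ to 3′ on the gene's strand, and capitals mark matches on either strand to TCACACCT (T-box) or to CTTTGAT and CTTTGAA (TCF/LEF, the DNA-binding partners of β-catenin), which differ in their last base only and did not overlap each other here. They lie at chr7:79793541-79793840 (minus strand) for Mesp1, chr12:11208899-11209198 (minus strand) for Msgn1, chr2:70474673-70474972 (plus strand) for Sp5 and chr17:8434173-8434472 (plus strand) for T.
Mesp1: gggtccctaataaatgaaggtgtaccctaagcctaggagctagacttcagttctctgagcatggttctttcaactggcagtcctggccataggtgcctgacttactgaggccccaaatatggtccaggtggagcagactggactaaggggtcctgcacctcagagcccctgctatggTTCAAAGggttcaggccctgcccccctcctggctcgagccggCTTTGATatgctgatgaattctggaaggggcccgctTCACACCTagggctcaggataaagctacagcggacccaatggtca
Msgn1: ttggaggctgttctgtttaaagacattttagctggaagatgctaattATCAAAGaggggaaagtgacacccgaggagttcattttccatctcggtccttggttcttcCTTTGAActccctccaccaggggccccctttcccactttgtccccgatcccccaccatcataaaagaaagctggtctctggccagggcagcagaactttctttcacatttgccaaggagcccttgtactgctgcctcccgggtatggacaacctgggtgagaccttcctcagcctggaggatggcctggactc
Sp5: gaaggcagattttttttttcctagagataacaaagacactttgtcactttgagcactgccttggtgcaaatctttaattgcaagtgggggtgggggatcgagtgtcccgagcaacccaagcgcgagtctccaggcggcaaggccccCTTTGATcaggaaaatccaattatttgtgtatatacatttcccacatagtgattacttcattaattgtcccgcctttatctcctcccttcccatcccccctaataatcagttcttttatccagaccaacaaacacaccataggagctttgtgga
T: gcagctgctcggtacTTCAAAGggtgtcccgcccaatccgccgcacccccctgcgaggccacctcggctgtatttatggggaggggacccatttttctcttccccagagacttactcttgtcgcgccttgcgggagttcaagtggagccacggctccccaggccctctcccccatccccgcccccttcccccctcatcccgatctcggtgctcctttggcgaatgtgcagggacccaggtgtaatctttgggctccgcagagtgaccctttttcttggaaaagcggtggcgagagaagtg

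The Mesp1 window held 3 matches, 1 of each word, and the Msgn1 window held 2. Over the 300 windows of 238 transient peaks, TCACACCT matched 2.0%, CTTTGAT 3.0% and CTTTGAA 6.0%, against 1.28%, 3.73% and 5.14% of all 32851 windows of the table. In the 417 windows of 337 dips the shares were 0.959%, 2.4% and 3.6%. Matches to the FOXH1 words AATCCACA and AATACACA stood in 1.0% and 0.333% of the peak windows, against 0.855% and 0.98% of all windows. The SMAD palindrome GTCTAGAC was in 3 of the peak windows (1.0%), in 0 of the dip windows and in 0.213% of all windows. These shares are descriptions of letters in a short window, and no match is a site.

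**Figure D2:**
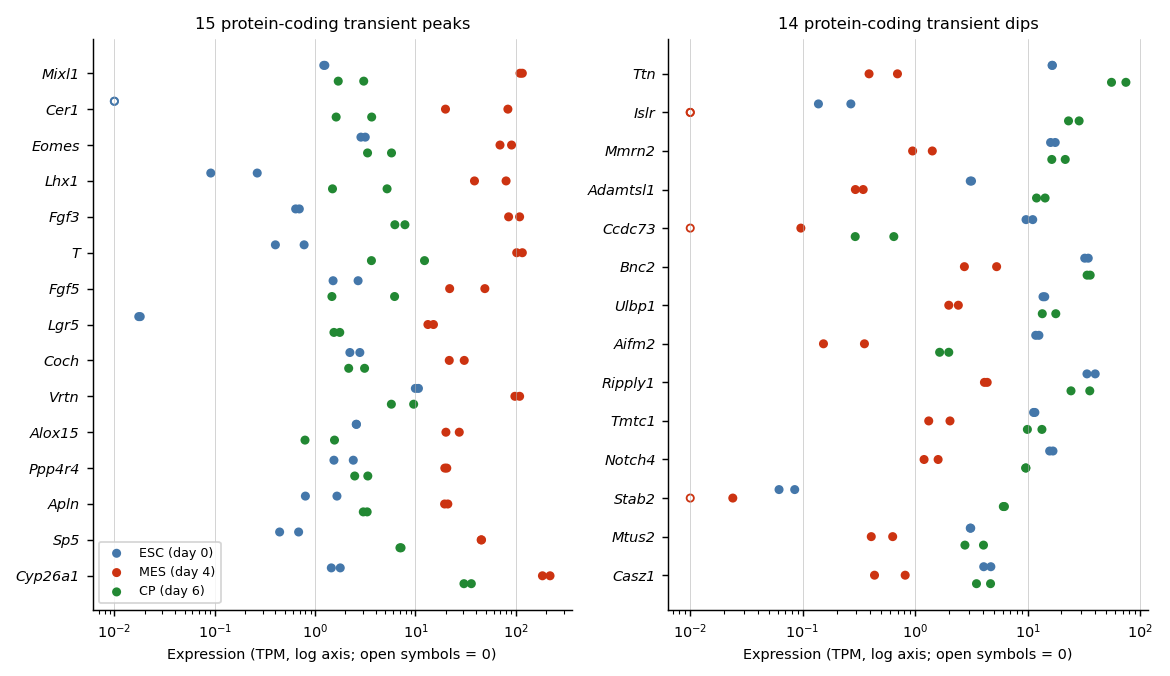
Expression (TPM, log axis) in each ESC, MES and CP library for the 15 protein-coding peaks and 14 of the 15 protein-coding dips with the largest smaller difference from either neighbour. Open symbols are libraries with no read. The genes were chosen for having both MES libraries beyond the ESC and CP libraries and for the size of the difference, so the separation is a description, as for Mixl1 (116 and 110 TPM in MES, against 3.05 and 1.7 TPM in CP and 1.25 and 1.22 TPM in ESC).

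Signalling genes peaked by pathway in unequal numbers. The list counts here and below stand beside 1.75% peaks and 2.49% dips over all genes tested. Above the flanking mean were 9.47% of all genes tested, and below it 8.66%. In the Wnt list, 10 of 51 tested members were transient peaks, 10 more were above the flanking mean and none was below it (median log2 difference 0.918). Peaks included the ligands Wnt3, Wnt5b and Wnt6, the receptor Fzd10, the agonist Rspo3 with the receptor Lgr5 that binds it, the transcription factor Lef1, and the feedback inhibitors Axin2, Dkk1 and Apcdd1. Wnt3, the ligand required to form the streak, had 59.8 and 52 TPM in MES, against 12.5 and 6.75 TPM in CP and 2.05 and 1.03 TPM in ESC. Lgr5 had 15.1 and 13.3 TPM in MES, against 1.76 and 1.54 TPM in CP and 2 reads in all of ESC (log2 difference from CP 3.25 ± 0.15, adjusted p = 1.26e-08). Rspo3 reached 108 and 95.5 TPM in MES and held 46.5 and 32.7 TPM in CP, against 0 and 0.241 TPM in ESC. Axin2, a widely used readout of Wnt activity, had 73.1 and 56.3 TPM in MES, against 23.1 and 20.5 TPM in CP and 8.56 and 8.41 TPM in ESC. Dkk1 lost its call as a peak without CP replicate 2.

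The FGF list had 4 peaks among 29 tested members, all of them ligands. Fgf3 had 109 and 84.7 TPM in MES, against 7.85 and 6.23 TPM in CP and 0.696 and 0.64 TPM in ESC (log2 difference from the flanking mean 5.44 ± 0.16, adjusted p = 1.26e-10). Fgf8, the ligand that streak cells need to move away, had 59.6 and 59.1 TPM in MES, against 12.4 and 14.9 TPM in CP and 0.533 and 1.38 TPM in ESC. Fgf15, whose gene lies in the same region of chromosome 7 as Fgf3 (starts at 144896531 and 144838083), had 57.4 and 42.4 TPM in MES, against 8.74 and 11.7 TPM in CP and 4.88 and 4.26 TPM in ESC. Fgf5, a marker of primed epiblast, was less even between MES replicates, at 21.9 and 49.1 TPM, against 6.19 and 1.47 TPM in CP and 1.51 and 2.68 TPM in ESC. The receptor Fgfr4 was the list's dip, at the edge of the threshold (log2 difference from ESC -1.0 and from CP -1.01), and lost that call in 9 of the 15 alternatives tried.

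In the Nodal list 3 of 20 tested members were peaks and 1 was a dip. Cer1, a secreted inhibitor of Nodal, BMP and Wnt ligands, varied most between MES replicates, at 19.9 and 83.3 TPM, against 3.66 and 1.62 TPM in CP and no read in ESC (at least 283-fold higher in MES). Cfc1, a Nodal co-receptor, had 57.2 and 93.2 TPM in MES, against 17.5 and 14.8 TPM in CP and 0.173 and 0 TPM in ESC. Foxh1, the SMAD partner that binds Nodal targets, was already expressed in ESC and peaked at 274 and 261 TPM in MES, against 39.8 and 31.1 TPM in CP and 86.7 and 91.4 TPM in ESC. Inhbb, the activin B subunit, was the dip, with 0.197 and 0.147 TPM in MES, 0.798 and 0.712 TPM in CP and 30.9 and 30 TPM in ESC, so that CP regained little of the ESC level.

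Of 32 BMP genes tested, Msx1, Msx2 and Bmper were peaks and 13 more were above the flanking mean. Msx1, a homeobox target of BMP, had 152 and 145 TPM in MES, against 73.3 and 55.6 TPM in CP and 0.523 and 0.66 TPM in ESC. In the retinoic acid and Hox list (29 tested) the peaks were Cyp26a1, Crabp1, Hoxb1, Hoxb2 and Hoxd1. Cyp26a1, the enzyme that degrades retinoic acid in the streak and tail bud, had 184 and 219 TPM in MES, against 36 and 30.4 TPM in CP and 1.45 and 1.78 TPM in ESC (log2 difference from the flanking mean 4.75 ± 0.11, adjusted p = 3.05e-11). Hoxb1 and Hoxd1, both of paralogue group 1, were low in absolute terms, Hoxd1 with 13.2 and 13.1 TPM in MES, against 0.912 and 1.97 TPM in CP and 0.0966 and 0.0999 TPM in ESC. The call of Hoxb2 as a peak was lost without MES replicate 1.

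Cxcr4, the chemokine receptor that guides migrating mesendoderm, had 171 and 178 TPM in MES, against 38.7 and 35.6 TPM in CP and 0.896 and 1.85 TPM in ESC. Apln, a peptide ligand of the apelin receptor, stood at 21 and 19.5 TPM in MES, against 3.3 and 3.02 TPM in CP and 0.8 and 1.65 TPM in ESC. They were the 2 peaks among 31 migration genes tested, where 16 more were above the flanking mean (median 1.26). In the epithelial to mesenchymal list Snai1 was the single peak among 36 tested, near the background of 1.75%. Beside it, 14 genes were above the mean (background 9.47%). Among them was Cdh2 (N-cadherin), which stayed up in CP (109 and 112 TPM in MES, 120 and 132 TPM in CP and 5 and 4.61 TPM in ESC).

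Of 24 haemangioblast and endothelial genes tested, 3 were peaks, 2 were dips, 8 more were above the flanking mean and 2 more below it. Etv2, the ETS factor at the head of the haemangioblast programme, had 45.4 and 35.6 TPM in MES, against 11.1 and 6.6 TPM in CP and 1.54 and 1.42 TPM in ESC. Tal1 had 51 and 52.1 TPM in MES, against 27.2 and 27.2 TPM in CP and 0.945 and 1.27 TPM in ESC, and Gata2, which rose again by day 10, 25.3 and 22.3 TPM in MES, against 12.7 and 7.05 TPM in CP and 0.433 and 0.276 TPM in ESC. The dips were Robo4 and Cldn5, both expressed in endothelium: Cldn5, a tight junction protein, had 1.18 and 1.18 TPM in MES, against 39.7 and 41.2 TPM in CP and 3.3 and 1.71 TPM in ESC, a call that was lost without ESC replicate 1 or MES replicate 2. Cdh5, the endothelial cadherin, was above the flanking mean and no dip, with 7.68 and 9.27 TPM in MES, 70.1 and 76.7 TPM in CP and 0.214 and 0.133 TPM in ESC. Of the 20 blood genes tested, Ikzf1 was the single peak and 11 more were above the flanking mean, with the CP libraries carrying most globin RNA.

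Of the remaining peaks among the 15 steepest, Coch (an extracellular matrix protein of the inner ear), Vrtn (a regulator of vertebral number), Alox15 (a lipoxygenase) and Ppp4r4 (a regulatory subunit of protein phosphatase 4) are not standard streak markers. Vrtn was among the more abundant, with 109 and 97.8 TPM in MES, against 9.59 and 5.75 TPM in CP and 9.97 and 10.7 TPM in ESC (log2 difference from the flanking mean 3.51 ± 0.13, adjusted p = 7.1e-10). Alox15 had 27.3 and 20.1 TPM in MES, against 1.56 and 0.793 TPM in CP and 2.57 and 2.58 TPM in ESC. Phlda2, an imprinted gene that limits placental growth, reached the highest level of the peaks named here, 568 and 477 TPM in MES, against 209 and 138 TPM in CP and 72.5 and 82.6 TPM in ESC.

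The list of MHC class I and interferon response genes held 6 peaks and 2 dips among 27 tested members. Of the peaks, 4 act in class I presentation (the heavy chain H2-K1, the loading factors Tapbp and Tap2 and the immunoproteasome subunit Psmb8), and the others were the transcription factor Irf1 and the membrane protein Ifitm1. Tapbp had 122 and 101 TPM in MES, against 54.5 and 45.9 TPM in CP and 27.9 and 31.6 TPM in ESC (log2 difference from the flanking mean 1.5 ± 0.1, adjusted p = 1.28e-07). H2-K1, whose reads may be shared with near-identical class I genes, had 73 and 65.6 TPM in MES, against 36.3 and 32.5 TPM in CP and 14.3 and 15.3 TPM in ESC. Irf1 had 41.8 and 34.8 TPM in MES, against 15.4 and 12.2 TPM in CP and 14 and 13.9 TPM in ESC. The dips were Ddx58, the RNA sensor RIG-I, with 3.74 and 5.32 TPM in MES, against 10.6 and 12.4 TPM in CP and 18.7 and 17.5 TPM in ESC, and Nlrc5, whose call was lost in 10 of the 15 alternatives. The list did not move as a whole. Against CP, 10 members were lower in MES (11.7% of all genes tested) and 6 higher (5.52%). Against ESC, 12 were higher (20.6%) and 3 lower (17.0%). The list's median log2 difference was 0.0671, near that of all genes.

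**Figure D3:**
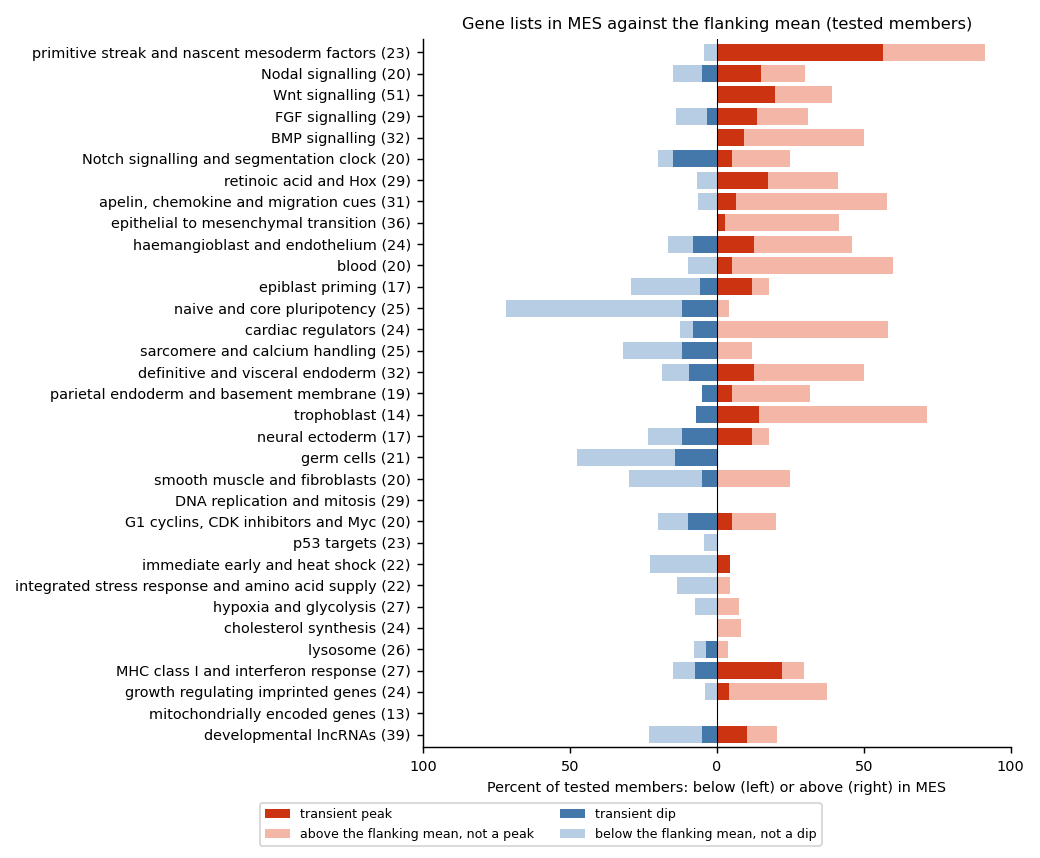
Share of the tested members of each gene list (number in brackets) that were called in MES against the mean of ESC and CP, to the right where higher and to the left where lower. Dark bars are transient peaks (red) and dips (blue), pale bars the other calls. Primitive streak factors have the longest dark red bar (13 of 23), and DNA replication and mitosis genes (29) and mitochondrially encoded genes (13) have no call.

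The steepest protein-coding dips were of mixed kinds, muscle, vessel and extracellular genes among them, and not all were well expressed in ESC. Ttn, the giant sarcomere protein titin (chr2:76703980-76982547), had 0.389 and 0.696 TPM in MES, against 55.7 and 74.8 TPM in CP and 16.5 and 16.6 TPM in ESC. Its reads numbered 610 in MES, 71386 in CP and 21241 in ESC, so that the day 0 level was well above the counting floor (log2 difference from ESC -5.14 ± 0.19, adjusted p = 1.27e-10, and from CP -6.76 ± 0.2, adjusted p = 5.43e-10). Actn2, the Z-disc protein α-actinin, had 2.21 and 3.13 TPM in MES, against 21.7 and 35.4 TPM in CP and 9.29 and 7.79 TPM in ESC. Myl2, the ventricular myosin light chain, was close to absent before CP, with 0 and 0.107 TPM in MES, 10.3 and 14.1 TPM in CP and 0.461 and 0.667 TPM in ESC, and its call was lost without ESC replicate 2 or MES replicate 1. These were the 3 dips among 25 sarcomere and calcium genes tested, of which none was a peak. Most of the list did not dip. In MES, 14 members were higher than in ESC (20.6% of all genes tested) and 3 were lower (17.0%). Against CP, 20 were lower in MES (11.7% of all genes tested).

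The cardiac regulators held 2 dips among 24 tested members and no peak, while 14 were above the flanking mean without turning. Smyd1, a muscle methyltransferase, had 1.01 and 1.6 TPM in MES, against 21.1 and 41.4 TPM in CP and 3.68 and 3.35 TPM in ESC. Wt1, a zinc finger factor of the epicardium and kidney, had 1.35 and 1.35 TPM in MES, against 6.89 and 9.64 TPM in CP and 23.2 and 24.2 TPM in ESC (log2 difference from the flanking mean -3.4 ± 0.17, adjusted p = 7.52e-09). Tbx20, by contrast, lay between its neighbours, at 118 and 110 TPM in MES, 173 and 194 TPM in CP and 0.18 and 0.186 TPM in ESC, above their log2 mean by 4.26. Nrp1, a co-receptor for semaphorins and VEGF, lay between them too (129 and 138 TPM in MES, 362 and 425 TPM in CP and 0.349 and 0.551 TPM in ESC), and its sign turned with the arithmetic mean.

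Mmrn2, an endothelial matrix protein, had 0.949 and 1.42 TPM in MES, against 16.4 and 21.6 TPM in CP and 17.6 and 16 TPM in ESC, and Notch4, a Notch receptor of endothelium, had 1.2 and 1.6 TPM in MES, against 9.66 and 9.61 TPM in CP and 15.7 and 16.8 TPM in ESC. These 2 endothelial genes were named for having both MES libraries below all flanking libraries, so their separation was a condition of choice. Both genes fell again by day 10. Bnc2, a zinc finger factor of mesenchyme, had 2.74 and 5.3 TPM in MES, against 36 and 33.8 TPM in CP and 32.2 and 34.6 TPM in ESC (log2 difference from the flanking mean -3.12 ± 0.17, adjusted p = 1.54e-08).

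Other dips with near-equal levels on both sides were Ulbp1, a ligand of the natural killer receptor NKG2D, with 1.99 and 2.42 TPM in MES, against 13.5 and 17.8 TPM in CP and 13.7 and 14.2 TPM in ESC, and Tmtc1, an O-mannosyltransferase, with 1.32 and 2.04 TPM in MES, against 9.95 and 13.4 TPM in CP and 11.3 and 11.6 TPM in ESC. Casz1, a zinc finger factor needed in the heart, had 0.435 and 0.815 TPM in MES, against 3.51 and 4.68 TPM in CP and 4.07 and 4.71 TPM in ESC. Adamtsl1 (a secreted matrix protein) and Mtus2 (a microtubule-associated protein) had log2 differences from the flanking mean of -4.35 and -2.67. Islr and Stab2 were barely expressed before CP (6 and 7 reads in ESC), and their dips rested on those few reads: Islr had 0 reads in MES and 648 in CP (at least 200-fold lower than CP) but could only be placed at least 2.03-fold below ESC, and its call was lost without ESC replicate 1 or either MES replicate. The Stab2 call was lost in 10 of the 15 alternatives.

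Ripply1, a repressor of T-box factors in the somite clock, was a dip, with 4.13 and 4.37 TPM in MES, against 24.3 and 35.7 TPM in CP and 33.7 and 39.9 TPM in ESC. With Notch4 and the fringe enzyme Mfng it made 3 dips among 20 Notch and segmentation genes tested. Mfng was uneven between MES replicates, at 0.59 and 2.35 TPM, yet below 8.67 and 10.4 TPM in CP and 8.24 and 7.66 TPM in ESC.

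The pluripotency list mostly fell from ESC without turning at MES. Of its 25 tested members, 15 were lower than the flanking mean without being dips, 3 were dips and none was a peak (median -2.06). Against single neighbours, 23 were lower in MES than in ESC, while 11 were higher than in CP and 3 lower. In the dips Tfcp2l1, Nr5a2 and Tdh, CP regained a small part of a high ESC level: Tdh, threonine dehydrogenase, had 1.04 and 2.87 TPM in MES, against 5.36 and 6.95 TPM in CP and 307 and 308 TPM in ESC. Nr5a2, a nuclear receptor, had 0.533 and 0.742 TPM in MES, against 2.12 and 2.16 TPM in CP and 45.7 and 45 TPM in ESC. Aifm2, a suppressor of ferroptosis, fell to 0.153 and 0.354 TPM in MES, against 1.65 and 1.99 TPM in CP and 12.6 and 11.8 TPM in ESC, and Ccdc73 had 2 reads in MES, 19 in CP and 494 in ESC. The call of Ccdc73 was lost without MES replicate 2 or CP replicate 2, that of Tdh without MES replicate 1 and that of Tfcp2l1 without CP replicate 2. The germ cell list had no member above the flanking mean, 3 dips (Mov10l1, Asz1 and Sycp1, all of the piRNA or meiotic machinery) and 7 others below it among 21 tested. Each of these 3 calls was lost without CP replicate 2 and without at least 1 MES replicate.

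Lists of other lineages also held peaks and dips, and their counts stand beside 1.75% peaks and 2.49% dips over all genes tested. Of 32 endoderm genes, 4 were peaks (Cer1, Gsc, Dkk1 and Foxa1) and 3 were dips (Rhox5, Cubn and Amn). Cubn, an endocytic receptor of visceral endoderm, had 2.33 and 3.61 TPM in MES, against 11 and 21.4 TPM in CP and 8.12 and 7.78 TPM in ESC. The calls of Foxa1 and Amn were lost without CP replicate 1 and without MES replicate 1 or CP replicate 2, in that order. Of 14 trophoblast genes, Eomes and Phlda2 were peaks and Rhox6 a dip, and of 17 epiblast genes Fgf5 and Car14 were peaks and Sox3 a dip. Of 17 neural genes, Pax3 and Fabp7 were peaks at low levels and Pax6 and Sox3 were dips, with the Fabp7 call lost without MES replicate 1 or CP replicate 1 and the Sox3 call without ESC replicate 2 or MES replicate 1.

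Of 19 parietal endoderm genes Snai1 was a peak and Srgn a dip, whose call was lost without any 1 of the 6 libraries. Ccn2, a matricellular growth factor, was the single dip among 20 smooth muscle and fibroblast genes, with 38 and 41.4 TPM in MES, against 114 and 135 TPM in CP and 71.9 and 69.7 TPM in ESC. Egr3, an early growth response factor, was the single peak among 22 immediate early and heat shock genes, and Phlda2 among 24 imprinted genes. Of 39 developmental lncRNAs, 4 were peaks (Evx1os, Fendrr, Rubie and Lhx1os) and 2 were dips (Sox2ot and Wt1os).

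Several housekeeping lists held no peak or dip, which in lists of this size is near the background of 1.75% and 2.49%. None of 29 DNA replication and mitosis genes and none of 13 mitochondrially encoded genes was called against the flanking mean by edgeR or DESeq2 (medians -0.0531 and -0.397), although 14 and 7 of them had an unadjusted p under 0.05 in edgeR. Among 23 p53 targets, 24 cholesterol synthesis genes, 27 hypoxia and glycolysis genes and 22 genes of the integrated stress response there was no peak and no dip with either tool, and 17, 22, 22 and 14 of them had an unadjusted p under 0.05 against the flanking mean in edgeR. The share of all genes tested with such a p is not given here. These counts therefore do not set any of the lists apart, and show only that small differences are not excluded. In the G1 list (20 tested) Mycl was a peak (not without MES replicate 2), Mxd3 a dip (not without MES replicate 2 or CP replicate 1), and Rbl2, the pocket protein p130, a dip with 2.63 and 3.09 TPM in MES, against 8.73 and 10.5 TPM in CP and 16.8 and 17.7 TPM in ESC.

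Long non-coding RNAs (lncRNAs) made up 20 of the peaks and 27 of the dips, which was 1.29% and 1.74% of the 1552 tested, against 1.97% and 2.87% of 14756 protein-coding genes. Reads were counted by strand, so divergent and antisense partners were counted apart. For 11 of the 20 lncRNA peaks (55.0%) the nearest tested protein-coding gene, by distance between start sites in the GENCODE annotation of GRCm38, was itself a transient peak, against 29 of all 1549 tested lncRNAs with a neighbour (1.87%), a count that includes the 11. For lncRNA dips the nearest coding gene was a dip in 3 of 27 (11.1%), against 1.61% of all tested lncRNAs. Pairs in a shared neighbourhood are not independent of each other, and no test was made.

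Evx1os (chr6:52308389-52314832, minus strand) starts 1334 bases from Evx1 on the opposite strand and had 23.5 and 19.8 TPM in MES, against 4.78 and 4.59 TPM in CP and no read in ESC (at least 206-fold higher in MES). Lhx1os starts 125 bases from Lhx1 and had 6.6 and 12.8 TPM in MES, against 3.95 and 2.48 TPM in CP and no read in ESC, and the higher MES replicate was the same one as for Lhx1. Its call was lost without MES replicate 2 or CP replicate 2. Haglr starts 84 bases from Hoxd1 and had 6.73 and 6.21 TPM in MES, against 1.97 and 1.22 TPM in CP and 0.119 and 0.123 TPM in ESC. Hoxb3os and Gm11536 lie by Hoxb2, Fzd10os starts 151 bases from Fzd10, and Gm26793 starts 930 bases from Fgf15.

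Gm14204 starts 44 bases from Slc32a1, the vesicular transporter of GABA and glycine, and both peaked: Gm14204 had 3.4 and 3.21 TPM in MES, against 0.287 and 0.497 TPM in CP and 0 and 0.0251 TPM in ESC, and Slc32a1 had 12.3 and 14.8 TPM in MES, against 1.37 and 1.24 TPM in CP and 0.0643 and 0.0665 TPM in ESC. A230077H06Rik paired in the same way with Vstm2b, 2609 bases away, which had 56.9 and 47.4 TPM in MES, against 13.5 and 12.2 TPM in CP and 0.393 and 0.542 TPM in ESC. Gm27204 lay by Prtg and 2700046A07Rik by Apcdd1, at larger distances. The other 9 lncRNA peaks had no peak as nearest coding gene. Gm45889 was the most abundant of the 8 steepest, with 47 and 46.7 TPM in MES, against 16.1 and 16.1 TPM in CP and 0 and 0.0546 TPM in ESC, and its nearest coding gene, Ifitm10, was 90543 bases away and not called. Fendrr, a lncRNA of lateral mesoderm, had 32.5 and 31.4 TPM in MES, against 13.7 and 14.6 TPM in CP and 0.0542 and 0 TPM in ESC, while Foxf1, 1276 bases away, was higher in MES without reaching a log2 difference of 1 from CP.

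Among dips, Wt1os starts 19 bases from Wt1 and had 1 read in MES, 12 in CP and 101 in ESC, with its call lost without MES replicate 1 or CP replicate 1. Gm10687 starts 16 bases from Mcam (melanoma cell adhesion molecule), which had 14.6 and 14.2 TPM in MES, against 63.3 and 64.8 TPM in CP and 85.7 and 84.3 TPM in ESC. Mir99ahg, the host of a miRNA cluster, was not seen in MES (0 reads, with 283 in CP and 8 in ESC). Sox2ot, which overlaps Sox2, had 4 reads in MES, 15 in CP and 518 in ESC and lost its call in 8 alternatives. The dips were fragile as a class: 13 lncRNA dips were called without CP replicate 1, against 27 with all libraries, and 11 with DESeq2.

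**Figure D4:**
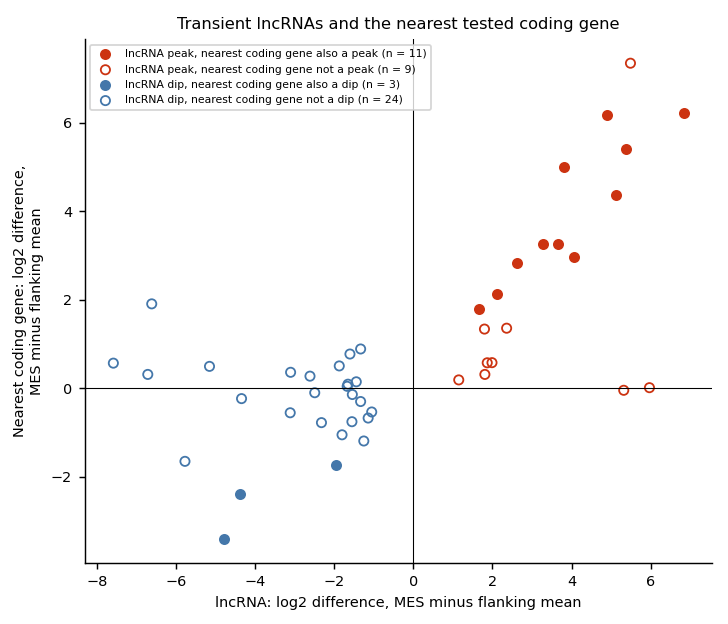
The log2 difference of MES from the flanking mean for each of the 20 lncRNA peaks (red) and 27 lncRNA dips (blue) on the horizontal axis, and for its nearest tested protein-coding gene on the vertical axis. Filled symbols are pairs in which both genes had the same kind of turn (11 peaks, 3 dips), and most dips lie along the zero line.

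Among 186 miRNA genes tested there were 3 peaks (Mir302b, Mir302d and Mir5622) and 3 dips (Mir196a-1, Mir487b and Mir99b), named because they are so few. The counts are reads of long-RNA libraries over annotated hairpins and say nothing of mature miRNA. Mir302b (chr3:127545228-127545301) had 31 reads in MES, 2 in CP and 2 in ESC, a ratio of 16.8 to CP (counting interval 4.27 to 145) and of 15.3 to ESC (counting interval 3.89 to 132). Mir302d, from the same cluster on the strand opposite to its host region Larp7, had 21 reads in MES and 0 in CP and in ESC, at least 7.57-fold and 6.91-fold higher. Larp7 itself, a 7SK binding protein, had log2 differences of 0.41 from ESC and 0.95 from CP in MES and was not called. Both cluster members are shown because their 3p arms share the seed AAGUGCU, which targets cell cycle and differentiation regulators in embryonic stem cells, and capitals mark bases 2 to 8 of the mature sequence (RefSeq, GRCm38.p6, chr3:127545275-127545297 and chr3:127545665-127545687, plus strand).
mmu-miR-302b-3p: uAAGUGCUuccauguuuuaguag
mmu-miR-302d-3p: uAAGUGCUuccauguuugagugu

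The call of Mir302d was lost without either MES replicate, that of Mir5622 in 12 of the 15 alternatives, that of Mir487b in 10, that of Mir99b in 11 and that of Mir196a-1 without ESC replicate 2. Mir302b kept its call in all 15, of which the arithmetic flanking mean could not remove it.

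CP did not always return to the ESC level. Of the 335 peaks, 158 were still called higher in CP than in ESC (background 26.4% of the genes tested), 13 were lower (background 21.6%) and 164 were not called. These comparisons share their CP and ESC libraries with the definition of a peak. Cyp26a1, Cxcr4 and Msx1 were among the 158, and Mixl1, Eomes and Coch, whose CP and ESC levels were not called apart (log2 difference of CP from ESC 0.58, 0.24 and -0.28), among the 164. Alox15 and Foxh1 were of the 13, and in CP relative to ESC they fell by 1.48 and 1.69 on the log2 scale.

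Of the 477 dips, 264 showed no call between CP and ESC, 155 were lower in CP and 58 were higher. The median CP level was 99.6% of the ESC level over all dips (quartiles 50.3% and 158%), against a median of 21.0% for MES. Ttn, Islr and Cldn5 were of the 58 that overshot, Bnc2, Mmrn2 and Ulbp1 of the 264, and the pluripotency dips and Inhbb of the 155.

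By day 10 most peaks were still below their MES level and most dips above it, while most showed no call between CM and CP. In a fit with all 8 libraries, 257 peaks were lower in CM than in MES, 2 were higher and 76 were not called, where 10.1% of 20071 genes were lower in CM and 19.1% higher. For dips, 419 were higher in CM than in MES, 2 were lower and 56 were not called. The MES libraries of this comparison are those that defined the turns, so the directions were partly fixed by that choice. Against CP, 53 peaks were lower in CM and 35 higher (background 2.65% and 8.17%) and 247 were not called, and 139 dips were higher, 26 lower and 312 not called. The peaks summed to 1362 and 1500 TPM in ESC, 10460 and 9315 TPM in MES, 3447 and 3051 TPM in CP and 2727 and 3038 TPM in CM. The dips summed to 6639 and 6721 TPM in ESC, 1182 and 1358 TPM in MES, 4581 and 5152 TPM in CP and 9091 and 8368 TPM in CM.

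Single genes departed from the common course. H2-K1 and Tapbp came back to 96.5 and 63.7 TPM and to 119 and 91.1 TPM in CM, against 36.3 and 32.5 TPM and 54.5 and 45.9 TPM in CP, and Gata2 to 33.7 and 20.9 TPM in CM, against 12.7 and 7.05 TPM in CP. Mesp1 and Msgn1 had no read in either CM library.

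**Figure D5:**
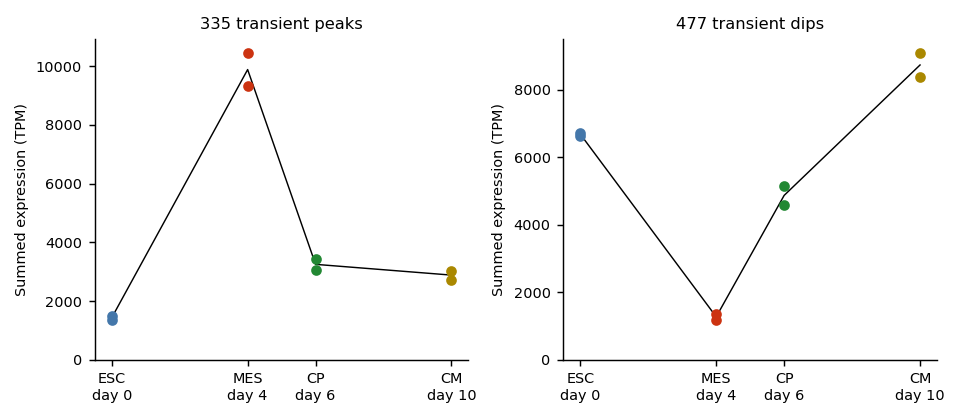
Summed expression (TPM) of the 335 transient peaks and the 477 transient dips in each library, by stage and day, with a line through the stage means. Peaks are highest at day 4 and low in CP and CM, and dips are lowest at day 4 and highest in CM, at 9091 and 8368 TPM.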

How the data were processed

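Strand-specific, rRNA-depleted RNA libraries were processed by the authors, who used Trim Galore 0.6.6 for trimming, HISAT2 2.2.1 for alignment (genome build GRCm38) and featureCounts 2.0.1, with its strand setting on, for gene counts. The authors deposited raw counts and TPM. TPM recomputed from the deposited counts and gene lengths differed by at most 4.35e-06. Counts of the 6 ESC, MES and CP libraries were fitted together with TMM scaling and edgeR 4.0.16 quasi-likelihood tests after edgeR's filter on low counts, with p-values adjusted by Benjamini-Hochberg over the 19166 genes tested. Standard errors (±) were taken as the log2 difference divided by the square root of its F statistic, so they are approximate. Comparisons with CM came from a second fit with all 8 libraries. The procedure was tested on simulated data in which only MES was changed, in 200 well-counted genes. Turns of genes with few reads, and genes that move steadily from ESC to CP, were not simulated.

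The members and all gene lists were chosen with earlier results of these data known. Named were the 15 protein-coding and 8 lncRNA peaks and dips with the largest smaller difference from either neighbour (average log2 CPM at least 2, or 0 for lncRNAs, and MES libraries beyond all others), up to 4 peaks and 4 dips per list by adjusted p, all tested streak factors, and list genes lying between their neighbours. The miRNAs, list members beyond these numbers, neighbours of named lncRNAs, H3c13 and Larp7 were chosen after their values were seen. Alternatives were DESeq2 1.42.0, other scalings and filters, all 8 libraries, a replicate block, a formal test of a fold above 2, an arithmetic flanking mean (with the p-values of the log2 comparison) and fits without each library. The arithmetic mean is counted among the alternatives but cannot remove a peak or dip, since these pass the same threshold against each neighbour. Folds against 0 reads used a floor of 3 reads over both libraries of the stage. Coordinates are from GENCODE for GRCm38, which placed 19134 of the genes tested. Each stage had 2 replicates, with 3 residual degrees of freedom in all. The p-values set a difference against the spread between these cultures. For each gene that spread was moderated towards the trend over all genes tested, so small p-values rest in part on other genes. A few genes that the rule names are not reported here.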

Additional observations from a re-analysis of the deposited data

How the results depend on the processing

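The formal test of a fold above 2, in place of a threshold on the estimate, left 990 genes higher and 789 lower, 139 peaks, 164 dips, 8 lncRNA peaks and 4 lncRNA dips. With the arithmetic flanking mean 869 genes were higher, and the log2 difference of Nrp1 against the flanking mean reversed to -0.42 (3.29 with the log2 mean). DESeq2 called 11 lncRNA dips. Without 1 library, the counts ran over 1645 to 1861 genes higher, 1363 to 1644 lower, 277 to 335 peaks, 369 to 467 dips, 17 to 25 lncRNA peaks and 13 to 20 lncRNA dips, the 13 being without CP replicate 1. All other counts stayed within 1.5-fold, among them DESeq2's 238 peaks and 361 dips.

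With the replicate number as a block, 1805 genes were higher, 1630 lower, 330 were peaks and 453 dips, 20 and 21 of them lncRNAs. Deviations of same-numbered libraries correlated at 0.0336, 0.0559 and 0.00665 over all genes tested. These values gave no sign of pairing. They cannot exclude it, because counting error in genes with few reads lowers such correlations.

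With 2 libraries per stage, turns of genes with few reads are the least certain: 83 of the 477 dips had 3 or fewer reads in MES, and 66 of the 335 peaks 3 or fewer in ESC, and their fitted differences depend on the prior count. A gene just under the threshold against either neighbour is not shown to lack a turn. Of 154 named peaks and dips, 59 lost that call with the formal test, 24 and 23 without MES replicate 2 and 1, 21 without CP replicate 2 and 18 with DESeq2, and 0 to 14 under each other alternative.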

Other observations

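Outside the lists, further genes of immune signalling and of muscle showed turns (chosen after their values were seen, so they are descriptions only). The chemokine Cxcl10 had 12.4 and 7.77 TPM in MES, against 3.58 and 3.07 TPM in CP and 1.36 and 0.495 TPM in ESC. The chemokine Cxcl16 had 17.3 and 12.6 TPM in MES, against 6.53 and 3.08 TPM in CP and 4.17 and 3.69 TPM in ESC. Cd74, the MHC class II invariant chain, had 7.86 and 9.31 TPM in MES, against 2.65 and 1.8 TPM in CP and 1.18 and 1.22 TPM in ESC. The antiviral genes Oas2 and Rsad2 turned the other way, with 0 reads in MES, 24 and 391 reads in CP and 98 and 9 reads in ESC, and the Rsad2 call was lost without ESC replicate 2.

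Of the 4 nuclear factor I genes, Nfib, Nfic and Nfix were dips and Nfia was not, and the Nfix call was lost without either MES replicate or CP replicate 2. Nfib had 3.19 and 2.38 TPM in MES, against 13.4 and 15.9 TPM in CP and 12.6 and 14.7 TPM in ESC. Nfic had 4.05 and 4.15 TPM in MES, against 12.3 and 13.5 TPM in CP and 13.3 and 12.9 TPM in ESC. Nfia had 2.94 and 2.89 TPM in MES, 14.1 and 14.9 TPM in CP and 0.479 and 0.563 TPM in ESC. Trim63, a ubiquitin ligase of the sarcomere, was a dip as well, with 1.7 and 1.69 TPM in MES, against 8.29 and 9.28 TPM in CP and 10.8 and 10.7 TPM in ESC.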
